A study of Mus musculus with 192 samples.

Results

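Klhl13, Vat1, Gaa, Emb, Tmsb10 and Dbi are 6 genes whose RNA was mapped across a grid of small cubes, called voxels, cut from the mouse brain. They were chosen from earlier results of these data as genes high at rows A-B of the grid or at its middle columns. They were found by gene symbol in the platform annotation, as 9 rows of a table of 20847 rows. After rows of 1 symbol were averaged they made up 6 of 15608 measured genes. All 6 were measured on more than 80% of the arrays of each dataset, and 4 of them lacked a value on 1 to 4 arrays.

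The mice were C57BL/6 males of postnatal day 56, and the labels name no altered gene and no treatment. Each array carried RNA of 1 voxel in one dye and RNA of whole mouse brain, the common reference, in the other. The labels call the voxel RNA pooled and do not say what was pooled. There were 68 grid positions in 3 independently harvested datasets, with 59, 68 and 65 arrays in datasets 1, 2 and 3. Voxel RNA carried Cy3 in datasets 1 and 3 and Cy5 in dataset 2, so a dye effect cannot be told apart from dataset 2. All 3 datasets covered 56 of the positions, and 2 datasets covered the other 12. A dataset is 1 replicate, and each value below is a mean ± SD over datasets, with n = 3 unless n = 2 is given.

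Rows run from A to G and columns from 1 to 11, and the labels attach no anatomical direction to either. Values are log2 ratios, from which the gene's mean over the 56 shared positions of the same dataset was subtracted where a position, row or column is given. The deposited rows had been centred on their own median, so values compare positions of 1 gene and give no level between genes. That a higher value means more RNA in the voxel is likely, from the blocks of known regional marker genes, but is not stated in the labels. Pairs of arrays within a dataset correlated at a median of 0.17 and at -0.57 in the lowest case, with 0.676% of pairs below -0.3. Arrays give no read depth, so their number limits the precision. In tissue RNA, fewer cells of a type and less RNA per cell cannot be told apart.

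The 6 genes belong to different pathways. Vat1 encodes a vesicle and mitochondrial outer membrane protein of the quinone oxidoreductase family, and Gaa encodes acid alpha-glucosidase, the lysosomal enzyme that breaks down glycogen and is deficient in Pompe disease. Dbi encodes the acyl-CoA binding protein, also called diazepam binding inhibitor, which is abundant in glia and in cells lining the ventricles. Tmsb10 encodes thymosin beta-10, a small peptide that binds actin monomers and is abundant in developing and growing neurons. Klhl13 is a BTB-Kelch adaptor that brings substrates to the CUL3 ubiquitin ligase, and Emb encodes embigin, an immunoglobulin-family glycoprotein that escorts monocarboxylate transporters to the cell surface. In the mouse brain the hypothalamus lies at the ventral midline, the ventricles lie near the midline, and the cortex covers the dorsal and lateral surface.

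Some arrays stood apart. In dataset 2, the arrays of row D at columns 1 to 7 correlated with the other datasets at a mean of -0.11 in the order of their labels and at 0.67 in reverse column order, over the 300 genes that differed most among positions. Reversal moves 6 of the 7 arrays, and D4 (0.76) keeps its place. The labels were kept, and the column differences and the correlations between datasets that moved are also given without these 6 arrays. Row D means and single positions use all arrays. One array, G8 of dataset 3, lacked 33.3% of its values, the most of any.

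All 6 genes differed among positions (moderated F test in limma, datasets blocked, adjusted p under 0.05), as did 768 of the 15608 genes, 4.92%. That test was among those that chose the genes, so nothing is read from this count. They were grouped as ventral and midline genes. They were also chosen on the row and column differences below, so those values are a description, with no test. Read as rows A-B and columns 5-7, the name describes 4 of them on both axes. Vat1, Dbi, Tmsb10 and Gaa were higher in rows A-B than in rows F-G, and higher in columns 5-7 than in columns 1-3 and 9-11, in 3 of 3 datasets. Klhl13 followed the rows but not the columns, and Emb followed the columns but not the rows. Of all genes, 13.4% were higher in rows A-B in all 3 datasets and 18.2% were higher in columns 5-7 in all 3. The share of all genes higher on both axes was not counted. Over all genes the median difference was -0.021 for rows, with 9 in 10 genes between -0.39 and 0.30, and -0.0015 for columns, with 9 in 10 between -0.23 and 0.22.

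**Figure D1:**
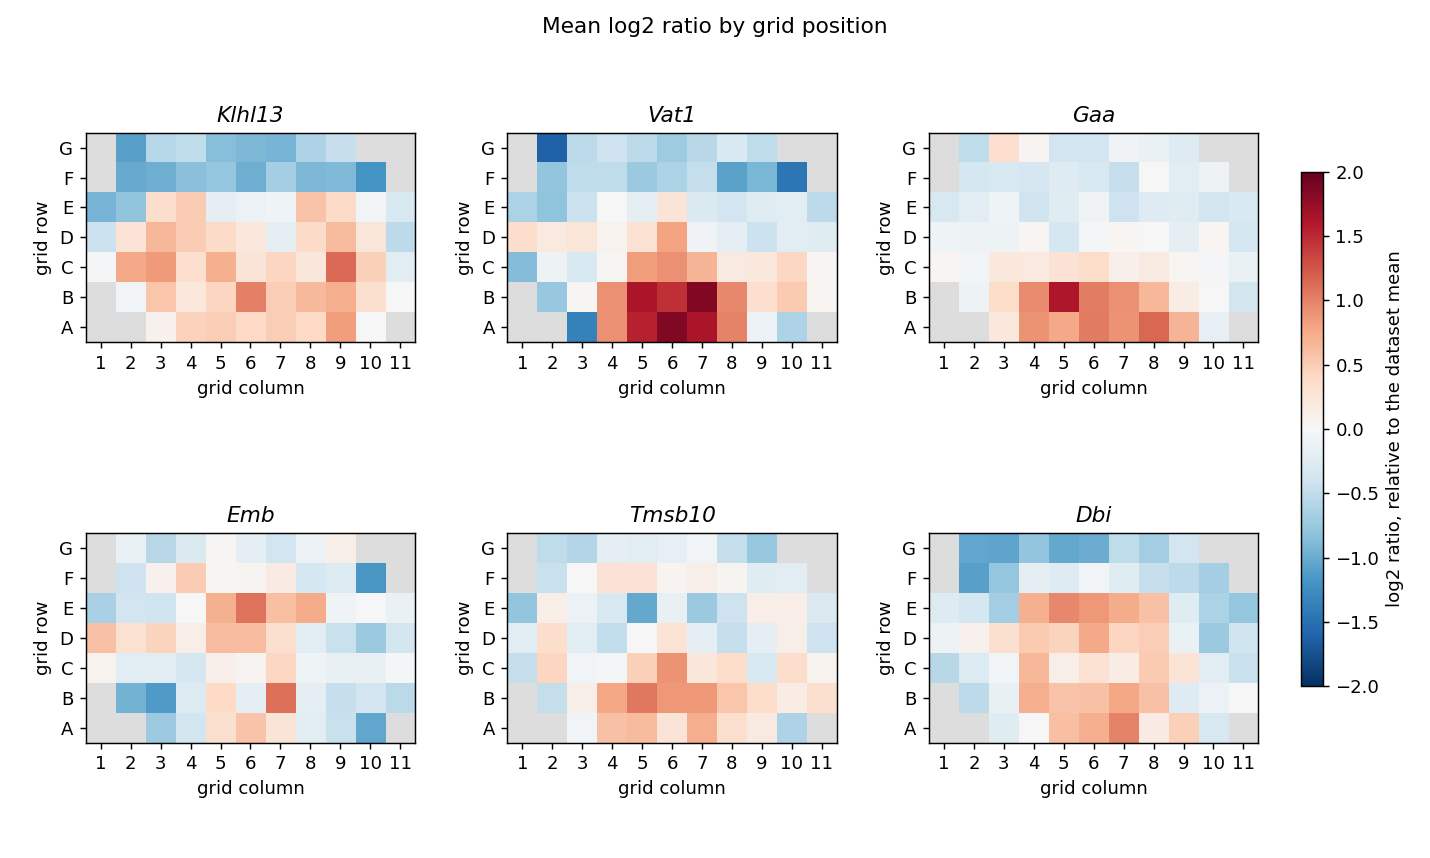
Mean log2 ratio of each gene at the 68 grid positions (columns 1 to 11 across, rows A to G up), relative to the gene's mean in the same dataset; red is higher, blue is lower and grey is not sampled. Vat1 and Gaa are red in a block at the middle of rows A-B, Klhl13 is blue across rows F-G at every column, and Emb is red at columns 5-7 of rows D and E.

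Vat1 had the widest map of the 6, with a range of 3.47 between its highest and lowest position means. Over the 188 arrays that measured it the value ran from -3.50 to 2.61, with a median of -0.11. Its 6 highest positions were the 6 positions where rows A-B meet columns 5-7. At the highest, A6, the values were 1.89, 2.11 and 1.54 in datasets 1 to 3 (1.85 ± 0.29). At B7 they were 1.30, 2.23 and 2.01 (1.85 ± 0.48). At B6 they were -0.73, 2.49 and 2.61 (1.46 ± 1.90), and dataset 1 alone lay below 0 there. The lowest position was G2 with -2.53 and -0.71 (-1.62 ± 1.29, n = 2), whose 2 values lay far apart. F10 was next, at -1.46 and -1.44 (-1.45 ± 0.019, n = 2).

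Rows A-B exceeded rows F-G in Vat1 by 1.06, 1.52 and 1.57 in datasets 1 to 3 (1.39 ± 0.28, a 2.61-fold difference). Columns 5-7 exceeded columns 1-3 and 9-11 by 0.91, 0.75 and 0.72 (0.80 ± 0.10, 1.74-fold), and by 0.88 without the 6 arrays of row D. All 6 differences were above 0. Along the rows the mean stood at 0.62 ± 0.23 in row A, 0.73 ± 0.16 in row B, 0.18 ± 0.22 in row C and 0.074 ± 0.11 in row D, and at -0.30 ± 0.13, -0.77 ± 0.31 and -0.64 ± 0.29 in rows E, F and G. The step from row B to row C was -0.55 ± 0.26, that from D to E was -0.38 ± 0.029 and that from E to F was -0.46 ± 0.18, each downward in 3 of 3 datasets. Rows C and D, and rows F and G, differed by less than their spread (-0.11 ± 0.26 and 0.13 ± 0.55). By distance from column 6, Vat1 stood at 0.56 ± 0.092 at column 6, 0.39 ± 0.022 at 1 column away, 0.050 ± 0.071 at 2 columns and -0.39 ± 0.34 at 3 columns, and beyond that neighbours did not differ by more than their spread.

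Gaa had the most compact map. Its 10 highest positions all lay in rows A-B, which hold 18 of the 68 positions, and 6 of them were in columns 5-7. At B5, the highest, the values were 1.46 and 1.79 in datasets 2 and 3 (1.62 ± 0.24, n = 2). At B6 they were 0.70, 1.25 and 1.12 (1.02 ± 0.29), and at B7 they were 1.11, 1.27 and 0.38 (0.92 ± 0.48). All of these values were above 0. The 4 arrays without a value for Gaa were A4, A5, A6 and A7 of dataset 2, so those positions rest on datasets 1 and 3, which read 0.89 and 1.19 at A6. The lowest position mean was -0.51 ± 0.0090 at G2 (n = 2).

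Gaa was higher in rows A-B than in rows F-G by 0.90, 0.84 and 0.59 (0.77 ± 0.17, 1.71-fold). It was higher in columns 5-7 than in the outer columns by 0.16, 0.11 and 0.42 (0.23 ± 0.16, 1.17-fold), and the mean was 0.14 without dataset 3. The row difference was the larger of the 2 in each dataset. Row means were 0.63 ± 0.14 in A and 0.51 ± 0.15 in B, 0.11 ± 0.090 in C, and between -0.27 and -0.10 in rows D to G. The step from B to C, -0.40 ± 0.17, was the largest between adjacent rows, while A and B differed by less than their spread (-0.12 ± 0.28).

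**Figure D2:**
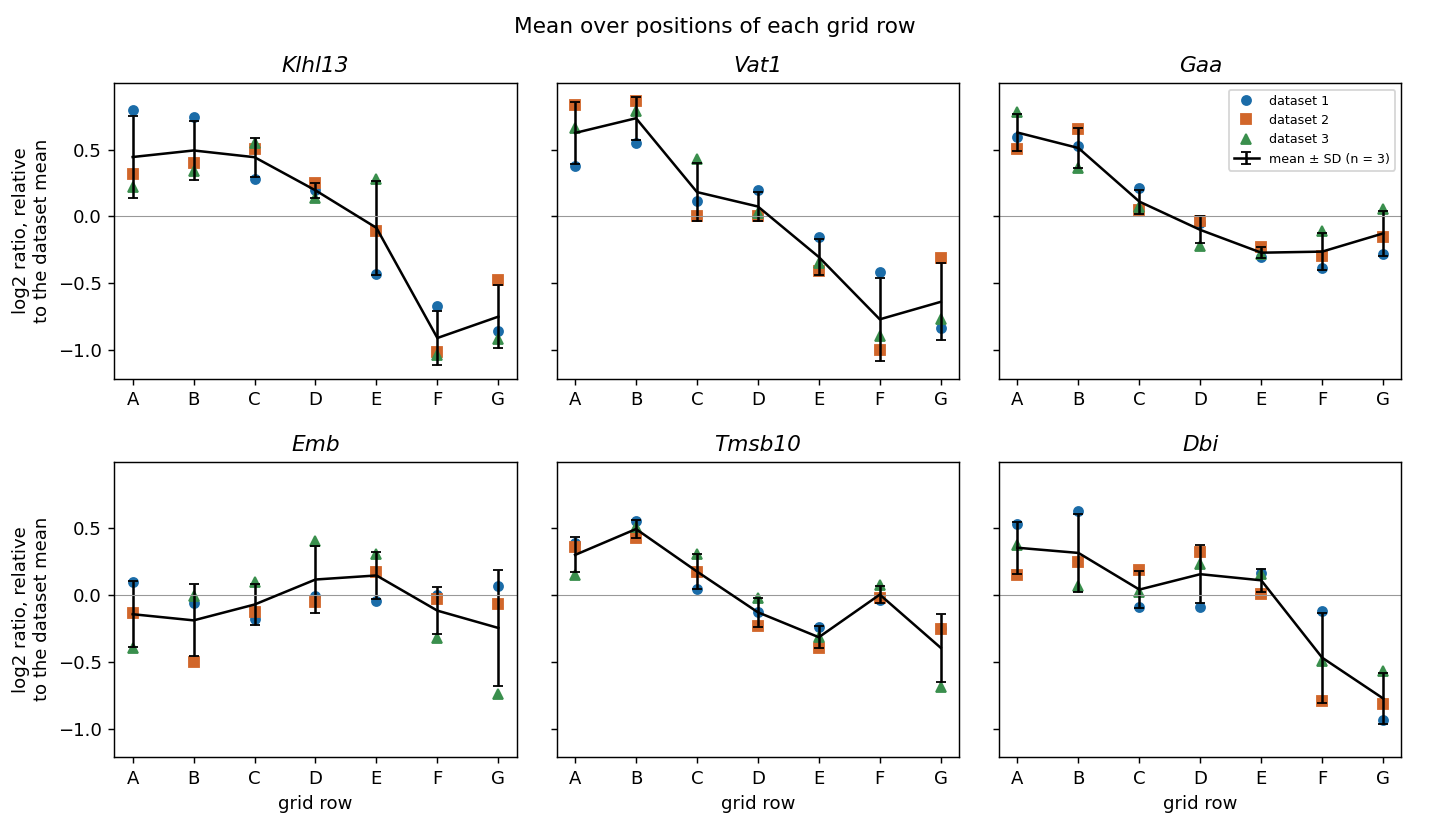
Mean log2 ratio over the positions of each grid row, relative to the gene's mean in the same dataset, for datasets 1 to 3 (points) with the mean ± SD (line, n = 3). Klhl13, Vat1 and Dbi are lowest in rows F and G, Gaa is highest in rows A and B, Tmsb10 dips in row E, and Emb shows no slope from row A to row G.

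The maps of Vat1 and Gaa had the highest Pearson correlation of the 15 pairs among the 6 genes (r = 0.76). It was taken over 68 positions, which share arrays and reference. By Spearman rho this pair stood at 0.61, below Vat1 and Dbi (0.72), Klhl13 and Vat1 (0.69) and Vat1 and Tmsb10 (0.64). The promoters of Vat1 and Gaa are shown because of the Pearson value. They are the 250 bases before the annotated start from RefSeq on GRCm38.p6, with motif matches in capitals. Both strands were searched for the TATA box TATAAA, for the CAAT box CCAAT, for the GC box GGGCGG, which reads CCGCCC on the other strand, and for the E-box CACGTG. They were also searched for the cAMP response element TGACGTCA and for its shorter form TGACG, which lies within it.
Vat1, chr11:101466200-101466449, minus strand: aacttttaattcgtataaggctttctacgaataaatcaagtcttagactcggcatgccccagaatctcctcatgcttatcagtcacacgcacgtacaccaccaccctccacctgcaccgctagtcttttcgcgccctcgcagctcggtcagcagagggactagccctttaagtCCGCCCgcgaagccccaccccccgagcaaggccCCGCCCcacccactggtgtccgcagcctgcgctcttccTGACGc
Gaa, chr11:119267713-119267962, plus strand: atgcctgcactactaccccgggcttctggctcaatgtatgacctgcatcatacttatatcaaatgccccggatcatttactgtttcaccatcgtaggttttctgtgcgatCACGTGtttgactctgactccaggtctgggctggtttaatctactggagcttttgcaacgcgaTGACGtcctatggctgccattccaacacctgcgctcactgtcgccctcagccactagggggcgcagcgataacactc
Both lie on chromosome 11 and are the only entry of their gene in the promoter table. The Vat1 stretch held 2 GC boxes and 1 TGACG, and the Gaa stretch held 1 E-box and 1 TGACG. Over 27025 promoters of the same length, 32.9% held the GC box, 6.05% the E-box, 17.9% the shorter form of the cAMP response element, 1.62% its full form, 34.5% the CAAT box and 13.0% the TATA box. Neither stretch held a TATA box or a CAAT box. The G and C content was 58.4% for Vat1 and 52.0% for Gaa, against a median of 52.0%. Such matches describe the letters only.

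Dbi was high over a broad area of rows A to E, with 15 positions within 1 pooled SD between datasets (0.45) of its highest. Its highest position was A7, with 1.48, 0.76 and 0.73 (0.99 ± 0.42), and next came E5, with 0.81, 0.98 and 1.09 (0.96 ± 0.14). E6 read 0.32, 1.30 and 0.97 (0.86 ± 0.50). All 9 of these values were above 0, and 4 of the 10 highest positions lay in rows A-B while 7 lay in columns 5-7. The lowest was F2 at -1.17, -1.27 and -0.79 (-1.08 ± 0.25), and 8 of the 10 lowest positions were in rows F-G.

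Dbi was higher in rows A-B than in rows F-G by 1.08, 1.00 and 0.73 (0.94 ± 0.18, 1.92-fold) and higher in the middle than in the outer columns by 0.64, 0.55 and 0.76 (0.65 ± 0.10, 1.57-fold). Rows A to E stood between 0.039 and 0.35. Among them the step from B to C was -0.27 ± 0.38, downward in 3 of 3 datasets but smaller than its spread, and that from C to D was 0.11 ± 0.11, upward in 2 of 3. The step from row E to row F was -0.58 ± 0.27, downward in 3 of 3 datasets. By distance from column 6, Dbi stood at 0.31 ± 0.24, 0.30 ± 0.10 and 0.20 ± 0.059 at 0, 1 and 2 columns. The step from 2 to 3 columns was -0.43 ± 0.11 and that from 3 to 4 was -0.24 ± 0.085, down to -0.47 ± 0.017.

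Tmsb10 had the smallest spread between datasets, with a pooled SD of 0.32 at a position. It was highest at B5, with 0.77 and 1.33 in datasets 2 and 3 (1.05 ± 0.40, n = 2). At C6 it read 0.70, 0.82 and 1.19 (0.90 ± 0.26), and at B7 it read 0.84, 0.95 and 0.83 (0.87 ± 0.068). These positions were high in each dataset that had them. The lowest position lay in the middle of the grid, E5, with -0.87, -1.21 and -1.003 (-1.03 ± 0.17). E5 was the second highest position of Dbi, so the genes parted there in every dataset.

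Rows A-B exceeded rows F-G in Tmsb10 by 0.60, 0.53 and 0.60 (0.57 ± 0.041, 1.49-fold), the smallest SD of the 6 genes. Columns 5-7 exceeded the outer columns by 0.28, 0.27 and 0.39 (0.31 ± 0.065, 1.24-fold), and by 0.36 without the 6 arrays of row D. The row profile was not a slope. It went from 0.49 ± 0.065 in row B to -0.32 ± 0.081 in row E, and stood at 0.0017 ± 0.062 in row F and at -0.40 ± 0.25 in row G. The step from E to F, 0.32 ± 0.11, had the same sign in 3 of 3 datasets.

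Klhl13 varied along the rows. Its highest position was C9, with 1.01, 0.94 and 1.43 (1.13 ± 0.27), and C3, in the mirror place across column 6, read 0.57, 1.18 and 0.83 (0.86 ± 0.30). Between them ranked B6, where dataset 1 read 2.52 and datasets 2 and 3 read 0.34 and 0.16 (1.01 ± 1.31). The mean at B6 rests on 1 high array. The lowest position was F10, with -1.33 and -1.07 (-1.20 ± 0.18, n = 2), and 9 of the 10 lowest positions were in rows F-G. Rows A-B exceeded rows F-G by 1.53, 1.12 and 1.27 (1.31 ± 0.20, 2.48-fold).

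The column difference of Klhl13 was 0.18, -0.092 and -0.022 (0.022 ± 0.14), with both signs among the datasets. By distance from column 6 it was highest 3 columns away, at 0.21 ± 0.050, and stood at -0.017 ± 0.22 at column 6 and -0.35 ± 0.22 at 5 columns. The step from 3 to 4 columns was -0.34 ± 0.042. Of its 10 highest positions 2 were in columns 5-7, which hold 21 of the 68 positions. Its row means were 0.44 ± 0.31, 0.49 ± 0.22 and 0.44 ± 0.14 in rows A, B and C, indistinguishable given their spread, and -0.91 ± 0.20 and -0.75 ± 0.24 in rows F and G.

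Emb varied along the columns. Its highest position mean, at B7, came from 2.50, 0.41 and 0.40 (1.10 ± 1.21), of which dataset 1 was far above the others. At E6 the values were 0.83, 1.13 and 1.27 (1.08 ± 0.23), all high. E8 followed with 0.94, 1.09 and 0.18 (0.73 ± 0.49) and E5 with 1.00, 0.30 and 0.83 (0.71 ± 0.36). The lowest was F10 with -1.46 and -0.88 (-1.17 ± 0.41, n = 2), and all 10 of the lowest positions lay in columns 1-3 or 9-11.

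Columns 5-7 exceeded the outer columns in Emb by 0.61, 0.55 and 0.68 (0.61 ± 0.066, 1.53-fold). Rows A-B and F-G differed by -0.0041, -0.29 and 0.32 (0.0082 ± 0.31), so the sign of the row difference changed between datasets. Emb stood at 0.29 ± 0.16 at column 6 and 0.35 ± 0.15 at 1 column away, and the step from there to 2 columns was -0.41 ± 0.17. No row mean of Emb was further from 0 than its SD.

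**Figure D3:**
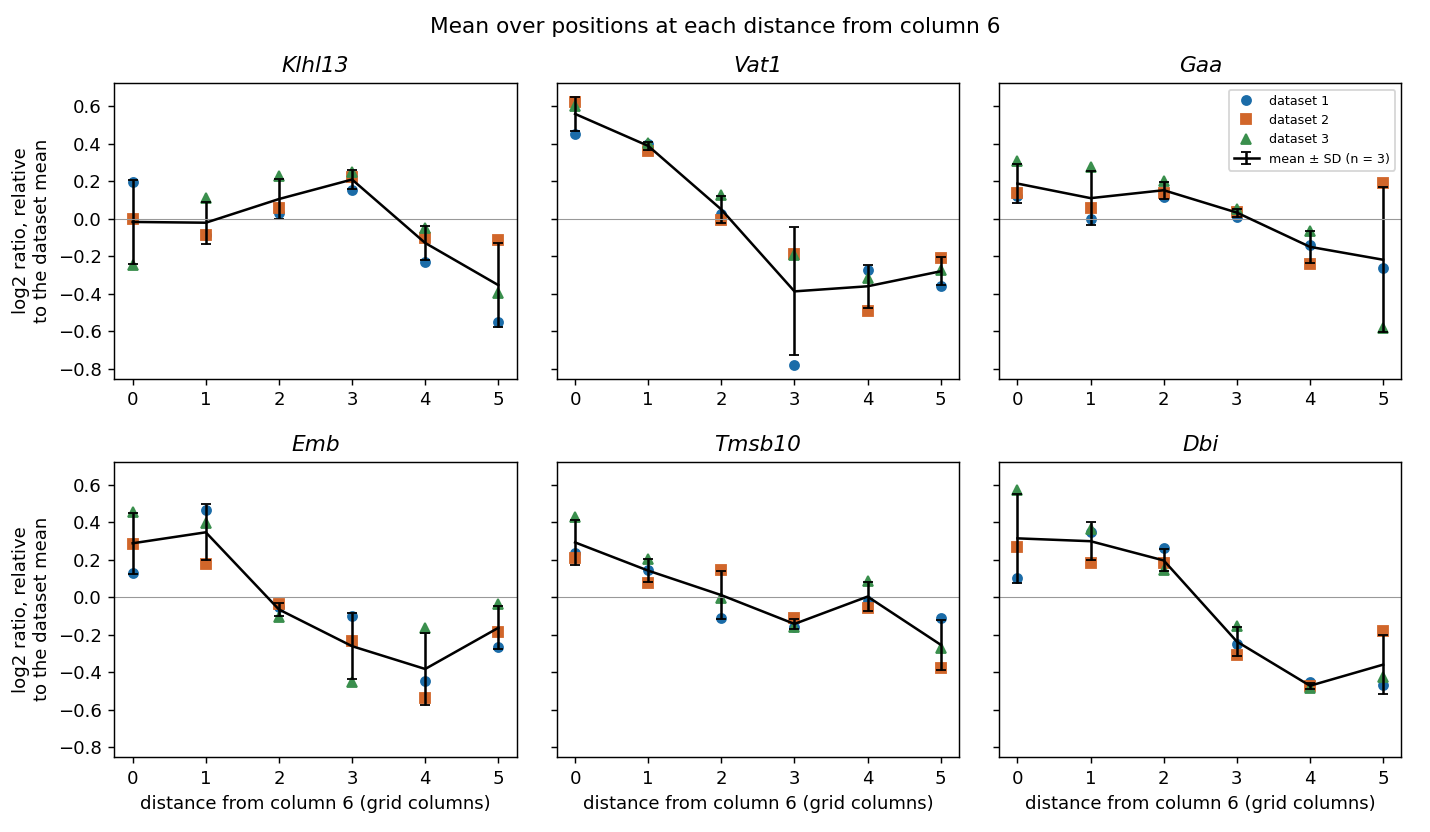
Mean log2 ratio over the positions at each distance from column 6 (0 to 5 grid columns), relative to the gene's mean in the same dataset, for datasets 1 to 3 (points) with the mean ± SD (line, n = 3). Vat1, Emb and Dbi are above 0 at 0 and 1 columns and below 0 from 3 columns on, and Klhl13 is highest 3 columns away.

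The difference of middle and outer columns was also taken within rows A-B and within rows F-G. The arrays where rows A-B meet columns 5-7 entered the choice of the genes, so these values are a description, with no test for the 6 genes. Vat1 had a column difference of 2.21, 2.31 and 1.58 within rows A-B (2.04 ± 0.40). It was 0.59, 0.20 and 0.83 within rows C-E (0.54 ± 0.32), or 0.59, 0.57 and 0.83 (0.66 ± 0.15) without the 6 arrays of row D, and 0.75, 0.14 and -0.34 within rows F-G (0.19 ± 0.55). The first 3 values lay above all others. That of dataset 1 rests on few outer arrays of rows A-B, A3, A9 and B10, which read -3.50, -0.89 and 1.57. In Gaa the column difference was 0.58, 1.20 and 1.05 within rows A-B (0.94 ± 0.32) and -0.26, -0.043 and -0.080 within rows F-G (-0.13 ± 0.11), which do not overlap. In dataset 2 the middle of rows A-B rests on B5, B6 and B7 for Gaa, since A5, A6 and A7 lacked a value.

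The column difference at rows A-B minus that at rows F-G was 1.46, 2.17 and 1.92 in Vat1 (1.85 ± 0.36) and 0.83, 1.24 and 1.13 in Gaa (1.07 ± 0.21), above 0 in 3 of 3 datasets. The few arrays behind dataset 1 for Vat1 and dataset 2 for Gaa limit these values too. The other genes had 0.79 ± 0.32 (Emb), 0.50 ± 0.29 (Dbi), 0.28 ± 0.23 (Klhl13) and 0.23 ± 0.30 (Tmsb10), the last above 0 in 2 of 3 datasets. Of all genes 16.4% were higher in 3 of 3 datasets, with a median of 0.012 and 9 in 10 genes between -0.47 and 0.54. None of the 15608 genes passed limma's test of this difference (0%), with 1064 at an unadjusted p under 0.05. Without dataset 1, 153 of all genes passed, in a fit that rests on 2 datasets, and without dataset 2 or dataset 3 the count was 0.

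**Figure D4:**
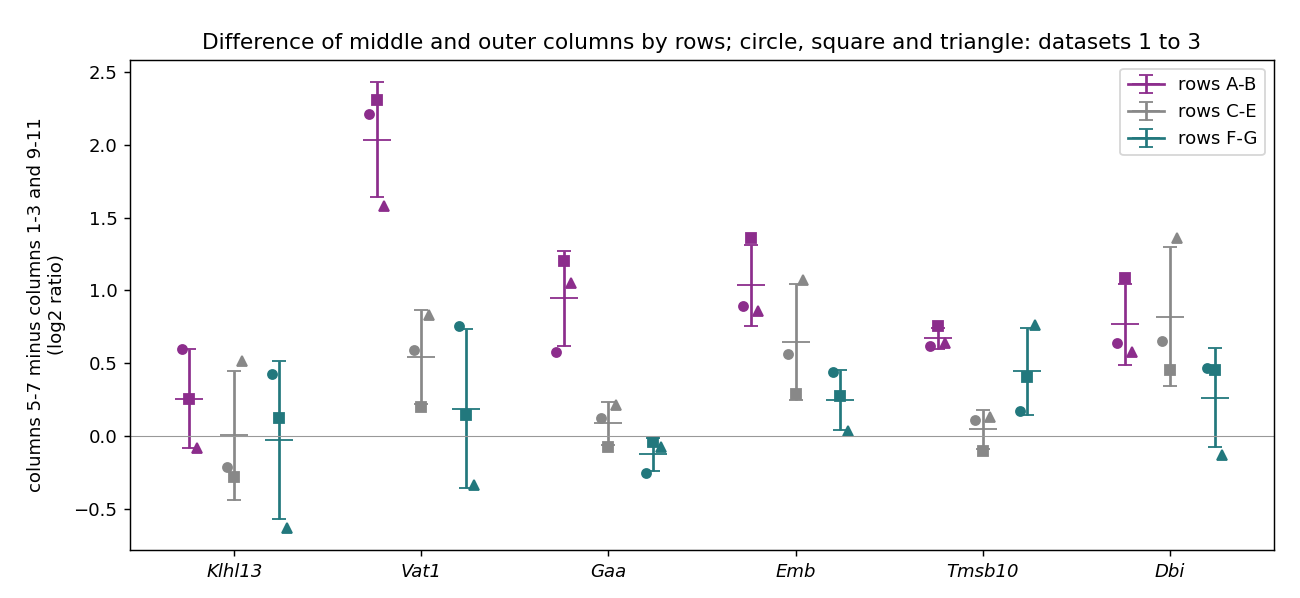
Difference of columns 5-7 and columns 1-3 and 9-11 (log2 ratio) in rows A-B, C-E and F-G for each gene, with datasets 1 to 3 as circle, square and triangle and the bar as mean ± SD (n = 3). For Vat1 the 3 values of rows A-B lie between 1.58 and 2.31 and those of rows F-G between -0.34 and 0.75, and for Klhl13 the values of every row group include both signs.

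The 2 sides of the grid were compared in mirror pairs of positions, 22, 29 and 27 pairs in datasets 1 to 3. The difference of columns 1-5 and 7-11 was 0.083, 0.054 and -0.32 in Klhl13 (-0.062 ± 0.23), the largest mean of the 6. It was -0.049 ± 0.11 in Vat1, 0.035 ± 0.097 in Gaa, 0.029 ± 0.076 in Emb, -0.013 ± 0.038 in Tmsb10 and -0.0039 ± 0.093 in Dbi. No gene had the same sign in all 3 datasets, and none passed (adjusted p between 0.962 and 0.997, limma). Of the 15608 genes 0% passed, while 522 had p under 0.05 before adjustment, and 13.2% were higher at columns 1-5 in 3 of 3 datasets. The map correlated with its mirror image over 29 pairs at r = 0.88 in Klhl13, 0.82 in Gaa, 0.82 in Tmsb10, 0.80 in Dbi, 0.75 in Vat1 and 0.35 in Emb.

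Maps of 1 gene were also compared between datasets. For Klhl13 the correlation over shared positions was 0.66 between datasets 1 and 2, 0.42 between 1 and 3 and 0.51 between 2 and 3, the last 0.56 without the 6 arrays of row D. For Tmsb10 the same were 0.63, 0.72 and 0.55, or 0.70, 0.72 and 0.61 without those arrays. For Dbi they were 0.66, 0.50 and 0.48, or 0.71, 0.55 and 0.64 without them. For Vat1 they were 0.42, 0.34 and 0.63, or 0.44, 0.32 and 0.70 without them. For Gaa they were 0.50, 0.55 and 0.47, little changed without them, and 0.43, 0.49 and 0.20 by Spearman rho. Emb had 0.48, 0.12 and 0.25 over 58, 56 and 64 positions, or 0.50, 0.047 and 0.31 without them. Against dataset 3 the values of Emb were the lowest of the 6, and between datasets 1 and 2 that of Vat1 was the lowest. Klhl13, Emb and Tmsb10 each had 2 rows in the table. The map of one row correlated with that of the other at 0.63 for Klhl13, 0.76 for Emb and 0.84 for Tmsb10 over 68 positions. Over single arrays the same pairs of rows correlated at 0.38 (188 arrays), 0.61 (190) and 0.72 (191). The 2 rows of Klhl13 gave row differences of 1.66 ± 0.34 and 1.03 ± 0.40 and peaked at different positions, C5 and A9. With both rows averaged, C5 read -0.088, 0.22 and 2.02 and A9 read 2.14, 0.089 and 0.27, each with 1 high array. Those of Tmsb10 gave column differences of 0.19 ± 0.034 and 0.44 ± 0.14.

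Among the 6 genes, Vat1 also tracked Tmsb10 (r = 0.69) and Dbi (0.68), and Gaa tracked Tmsb10 (0.66). The lowest value was that of Gaa and Emb, 0.061. Against 8409 other genes with a symbol, the maps nearest to Vat1 were those of Timp2 (r = 0.84), an inhibitor of matrix metalloproteinases, Sparc (0.84), a matrix glycoprotein, and AW551984 (0.82). Those nearest to Gaa were Ndn (0.87), which encodes necdin, Bex4 (0.84) and Peg3 (0.84), and Ndn and Peg3 are imprinted genes. Tmsb10 was nearest to Bex2 (0.83), Ndn (0.80) and 6330403K07Rik (0.80), so Ndn stood in the lists of both. Chn1, a Rac GTPase-activating protein gene, had the lowest correlation with Vat1 (-0.87), Gaa (-0.81) and Tmsb10 (-0.63).

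The nearest map to Dbi was that of Cd63 (r = 0.90), a tetraspanin of late endosomes, followed by Tppp3 (0.80) and Efnb3 (0.79), and the most opposed was Epop (-0.85). Klhl13 was nearest to the transcription factor genes Zfp503 (0.79) and Pbx3 (0.79) and to Vat1l (0.78), and most opposed to Efr3a (-0.84). Emb had weaker neighbours, Srprb (0.70), Nynrin (0.69) and Gtf2i (0.68), and was most opposed to Speg (-0.76). These are the extremes of many comparisons over the same 68 positions, and are a description.

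Vat1, Klhl13, Tmsb10 and Emb were also set beside listed relatives, and Vat1l had the highest correlation. It correlated with Vat1 at 0.78 and peaked at B5 (1.66 ± 0.21, n = 2). That value is no higher than its correlation with Klhl13 (0.78), and Vat1l was not among the 3 maps nearest to Vat1. Klhl9, which works with Klhl13 in CUL3 complexes, correlated with Klhl13 at 0.042. Tmsb4x, the other main thymosin, correlated with Tmsb10 at 0.17 and peaked at E6 (0.61 ± 0.17). Bsg and Nptn, the basigin and neuroplastin genes, correlated with Emb at 0.18 and -0.37.

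Genes of the same pathways were then counted, from lists written with earlier results of these data known. Against 4.92% of all genes differing among positions, 2 of 21 measured CUL3 adaptor genes did, Ivns1abp and Klhl5, and 1 of 7 relatives of Vat1, Vat1l. Klhl5, a BTB-Kelch gene like Klhl13, was 0.38 ± 0.068 higher in rows A-B, in 3 of 3 datasets, without passing (adjusted p = 0.410, limma). Of 33 lysosomal genes only the membrane protein gene Lamp2 differed among positions, and of 14 glycogen genes only Pygb, the brain glycogen phosphorylase. Pygb was 0.38 ± 0.22 higher in rows A-B (adjusted p = 0.490, limma) and 0.36 ± 0.14 higher in columns 5-7 (adjusted p = 0.233). The median row difference of the lysosomal list was -0.046, and 5 of its 33 genes were higher in rows A-B in all 3 datasets against 13.4% of all genes. In columns 5-7, 13 of the 33 were higher in all 3 datasets against 18.2%, with a median of 0.092.

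Of 25 genes that bind or use acyl-CoA, 2 differed among positions, the fatty acid desaturase Scd2 and the acyl-CoA synthetase Acsbg1. Scd2 was 0.56 ± 0.23 higher in columns 5-7 in 3 of 3 datasets (adjusted p = 0.149, limma), and 11 of the 25 were higher there in all 3 datasets against 18.2% of all genes, with a median of 0.11. Of 27 actin monomer regulators 6 differed among positions, led by Gsn, Tmsb4x, Arpc2 and Capza1. Their median row difference was -0.11, opposite in sign to that of Tmsb10, and 10 of 27 were lower in rows A-B in all 3 datasets against 19% of all genes. Of 8 genes for embigin relatives, monocarboxylate transporters and lactate dehydrogenases, 2 differed, Ldhb and Nptn. Nptn was 0.52 ± 0.25 lower in rows A-B (adjusted p = 0.364, limma). In these 7 lists 0 genes passed any of the zone tests, in which at most 17 genes passed (0.109%, rows A-B against rows F-G, of which 4, or 0.0256%, were higher in rows A-B).

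Markers of brain regions and cell types moved with these maps. Of 23 hypothalamic markers 5 were measured, Ndn, Peg3, Cartpt, Sst and Nr5a1, and their summed log2 ratio in the 6 positions where rows A-B meet columns 5-7 lay between 3.00 and 3.95 in the 3 datasets, against -1.92 to -0.15 at the same columns of rows F-G. Single markers went the other way in 3 of 3 datasets, with Nr5a1 lower in rows A-B than in rows F-G (-0.31 ± 0.21) and Sst and Cartpt lower in columns 5-7 (-0.31 ± 0.15 and -0.26 ± 0.16). The mean map of the 5 correlated with Gaa at 0.78, with Tmsb10 at 0.77 and with Vat1 at 0.71. Ndn and Peg3 also stand among the maps nearest to Gaa above, and Ndn among those nearest to Tmsb10. For Gaa and Tmsb10 the list correlation is therefore not separate from that result. The summed level of 6 of 20 cortical markers lay between -3.45 and -2.10 in the first block and between 1.67 and 2.34 in the second. Their mean map correlated with Dbi at -0.74, with Klhl13 at -0.66, with Vat1 at -0.65 and with Gaa at -0.60. With Tmsb10 and Emb it correlated at -0.36 and -0.31. Of these markers, Vxn and Fezf2 had the largest differences of rows A-B and F-G (-2.38 ± 0.39 and -1.15 ± 0.46). Foxp2 was higher in rows A-B in 3 of 3 datasets (0.55 ± 0.25). Cux1 and Tle4 had no common sign among datasets (-0.027 ± 0.25 and -0.19 ± 0.21). For 6 of 9 ependymal markers the sums in these blocks were 0.80 to 1.16 and -1.54 to -0.75, and the list correlated with Dbi at 0.63 and with Emb at 0.54. Of the 6, only Ccdc153 and Rarres2 differed among positions. Other lists came near these values. Dbi correlated with the myelin list at 0.58 and with the thalamus list at 0.46. Emb correlated with the thalamus, myelin and choroid plexus lists at 0.47, 0.45 and 0.45. The striatal list correlated with Klhl13 at 0.45. Centred ratios give no level at which a marker is absent, and the part of these cell types in the maps was not tested.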

How the data were processed

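Per the labels, voxel and whole brain RNA (total RNA, Trizol) was reverse transcribed and coupled to Cy3 or Cy5. The authors deposited 1 table of log2 ratios. For scanner, background correction and normalization, nothing is stated in the labels used here. The labelling text names a lithium chloride treatment that no sample label gives. Rows were centred on their own median in 99.9% of cases, to within 0.001. Values at the floor of -6.64 (19322 values) were taken as not measured, and 1.93% were missing.

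Arrays were shifted (by 0.353 or less) to a median of 0 over rows without missing values. A row needed values on 80% or more of each dataset's arrays, 20 control rows were dropped, and rows of 1 symbol were averaged. Positions were tested with limma (3.58.1, R 4.3.3), F test, dataset as a block. Zone differences were tested two-sided with limma on 1 value per dataset, Benjamini-Hochberg over 15608 genes, threshold 0.05. Dataset numbers pair the arrays because each names a harvest, and deviations from the position means correlated within a dataset at a median of 0.24. Between datasets the median was -0.12. Deviations at a position sum to 0 over datasets, so that negative value is no separate evidence for pairing. The tests were checked on simulated data, where log2 differences of 2 in 200 genes were recovered in 96.5% to 100% of cases.

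The genes and lists were chosen with earlier results of these data known. Named are the 6 genes, for each the 3 genes with the most similar map and the 1 with the least, its nearest relative where listed and measured, and up to 4 genes of each pathway list that differed among positions, by F.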

Additional observations from a re-analysis of the deposited data

How the results depend on the processing

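Of 320 values of the 6 genes under other settings, 294 kept their direction and their side of the threshold, or moved by less than the spread between datasets. A further 8 moved by more than that spread. They were row differences of Klhl13 (range over settings 1.03 to 1.52), Vat1 (1.29 to 1.77) and Tmsb10 (0.55 to 0.62). The rest were column differences of Tmsb10 (0.19 to 0.36) and Emb (0.53 to 0.68). Another 2 were differences of column differences, in Vat1 and Gaa, for which no test is read. The row differences of Klhl13, Vat1, Gaa, Tmsb10 and Dbi and the column differences of Vat1, Gaa, Emb, Tmsb10 and Dbi stayed above 0 in every setting run. The genes were chosen on these differences, so this describes the processing and is no further evidence for the pattern. The column difference of Klhl13 (-0.070 to 0.14) and the row difference of Emb (-0.15 to 0.19), which had both signs among the datasets, took both signs across settings. Of 16 reversals 15 were in the difference between sides: Klhl13 (0.019 with quantile normalization, 0.079 for 1 of its 2 rows of the table), Tmsb10 (0.027 with quantile normalization, 0.0028 over shared positions), Dbi (0.0069 with arrays not centred, 0.0094 with quantile normalization, 0.028 over shared positions) and Emb (-0.042 with floor values kept, -0.031 without the 6 arrays of row D). Without 1 dataset the side difference ran from -0.13 to 0.069 in Klhl13, -0.10 to 0.011 in Vat1, -0.021 to 0.067 in Gaa, -0.014 to 0.056 in Emb, -0.026 to 0.0090 in Tmsb10 and -0.038 to 0.049 in Dbi. The other was in Klhl13, where that row gave -0.11 in place of 0.28 for the column difference at rows A-B minus that at rows F-G.

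Counts over all genes moved more, and the cause was not tested. For genes differing among positions, 768 became 366 with no replicate block, 1161 with quantile normalization, and 213 to 546 without 1 dataset. For rows A-B against F-G, 17 became 10 with no replicate block, 0 with quantile normalization, 1 with floor values kept, 154 with rows measured on every array (7049 tested, without Klhl13, Vat1, Gaa and Emb), 5 with a minimum of 50% of arrays, 26 with values limited to within 3 of 0, 33 over shared positions and 0 to 2 without 1 dataset. For the columns, 0 became 60, 201, 8 and 5 with quantile normalization, every array, the limit and shared positions, 46 without the 6 arrays of row D (chosen after seeing the data) and 0 to 35 without 1 dataset. For the difference of column differences 0 became 26 with rows measured on every array and 0 to 153 without 1 dataset. The replicate block changed no other call. Depth is not given by these arrays.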
